A study of Rattus norvegicus with 48 samples.

Results

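MiR-31a and miR-21 are microRNAs (miRNAs) linked to osteoclast formation and bone loss, and each is read here as both arms of its hairpin. The 4 mature miRNAs (rno-miR-31a-5p, rno-miR-31a-3p, rno-miR-21-5p and rno-miR-21-3p) were taken by name from the table of each of 48 small RNA libraries. The tables list 763 mature rat miRNAs, and 629 of these were read at least once. The libraries fell into 11 groups. The 14 WT sera comprised 5 of placebo rats, 5 of rats on parathyroid hormone (PTH) and 4 of rats on an anti-sclerostin antibody, and the 18 ZDF sera comprised 5 on placebo, 5 on PTH, 4 on the antibody and 4 on insulin. The 16 bone libraries were ulnae, 4 for each genotype on placebo and 4 for each on PTH. Frozen ulnae were ground, and RNA was extracted from the bone fragments recovered. Removal of marrow or muscle is not described, so remnants of both may be included. Per the study's methods, all rats were male, were 11 weeks old when treatment began and were sampled 12 weeks later. ZDF (Zucker diabetic fatty) rats lack a working leptin receptor and become obese and diabetic, and the WT rats were lean Zucker rats. All groups, controls included, carried a surgical defect in the femur and ate a high-fat, high-carbohydrate chow. The bones came from rats that also gave serum, apart from 2 of the 4 ZDF bones under PTH, but the labels do not say which ones, and bone and serum enter the tests as unrelated samples.

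Osteoclasts resorb bone and osteoblasts lay it down, and remodelling is the balance between both. MiR-21 is abundant in many cell types and is known to favour osteoclast differentiation downstream of the cytokine RANKL, partly by repressing PDCD4. MiR-31 is known in osteoclasts for its repression of RhoA, which shapes the actin ring, and in osteoblast precursors for its repression of osterix. From a miRNA hairpin, 1 arm usually stays in the silencing complex and the other is degraded.

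The 4 mature sequences are shown because their seeds, bases 2 to 8 in capitals, set which transcripts each arm can pair with. They are given from RefSeq, 5′ to 3′.
rno-miR-31a-5p: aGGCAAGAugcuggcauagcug
rno-miR-31a-3p: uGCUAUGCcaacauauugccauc
rno-miR-21-5p: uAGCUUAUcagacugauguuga
rno-miR-21-3p: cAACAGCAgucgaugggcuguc
The 4 seeds differ from each other, and no other rat miRNA in the RefSeq table held any of them. All 4 members were matched to RefSeq. In the GRCr8 assembly, rno-miR-31a-5p lies at chr5:108714906-108714927 on the minus strand within the span of an uncharacterised lncRNA gene, and rno-miR-21-5p at chr10:71902653-71902674 on the minus strand, with its hairpin 532 bases from the span of Vmp1, a gene of autophagosome formation. The authors mapped to an earlier assembly, so these positions are not those of their mapping. The hairpins show how the arms sit, with both arms in capitals.
Mir31: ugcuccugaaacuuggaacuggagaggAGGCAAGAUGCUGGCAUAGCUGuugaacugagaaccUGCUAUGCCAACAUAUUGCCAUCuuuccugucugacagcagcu
Mir21: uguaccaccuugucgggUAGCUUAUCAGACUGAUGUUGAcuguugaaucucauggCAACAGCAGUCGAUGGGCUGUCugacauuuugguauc
A further miRNA, rno-miR-31b, is encoded on the opposite strand of Mir31, and all 19 of its bases pair with rno-miR-31a-5p. It had 0 reads in all 48 libraries.
rno-miR-31b: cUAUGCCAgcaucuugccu

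Sera held 28015 to 205664 miRNA reads each and bones 41627 to 1398702, and these totals set how firmly the low members can be read. Marker lists were read to check the labelled tissues. A list of 5 mesenchymal miRNAs summed to 57617 to 285389 CPM (counts in 1000000 miRNA reads after TMM scaling, which corrects for library composition) in bone and 4737 to 83793 CPM in serum. A list of 3 hepatocyte miRNAs summed to 108 to 4221 CPM in serum and 0 to 11.0 CPM in bone. The bones also held much muscle miRNA, at 47996 to 456925 CPM over 5 miRNAs. In bulk samples, fewer cells of a type and less RNA per cell cannot be told apart. Between libraries of the same group, counts differed by more than counting noise in all 82 pairs. The labels do not name litters or days, and p-values measure only the spread between these samples.

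The arms differed strongly in level. MiR-21-5p was among the most abundant miRNAs, with a median rank of 7 in serum and 10 in bone. Its level was 37853 ± 10254 CPM (SD, n = 32) in serum and 26365 ± 8635 CPM (SD, n = 16) in bone. Its partner miR-21-3p was at 117 ± 63.4 CPM in serum and 108 ± 75.4 CPM in bone, with 1 to 35 reads in a serum and 7 to 94 in a bone. MiR-31a-5p was at 179 ± 155 CPM in serum and 167 ± 124 CPM in bone, with 0 to 103 reads in a serum and 1 to 353 in a bone. A single serum library, of a WT rat given anti-sclerostin, had 0 reads of it. MiR-31a-3p was almost unread: 1 ZDF serum under PTH held 1 read, 1 ZDF serum under anti-sclerostin held 2, and the other libraries held 0. In the 16 bones together, 0 of 6401893 miRNA reads fell on it, which allows up to 0.469 reads in 1000000 (counting error only). Its values are given as reads, with no fold change. The number of miR-31a-5p and miR-21-3p reads in a library was often below 20, and a level from 6 reads, such as 59.6 CPM in a WT placebo serum, carries a 95% Poisson interval of 21.9 to 130 CPM.

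Under placebo, serum miR-31a-5p was higher in ZDF than in WT rats. Its level was 59.6, 78.3, 92.9, 95.9 and 133 CPM in the 5 WT rats and 150, 193, 268, 471 and 545 CPM in the 5 ZDF rats. Every ZDF serum was above every WT serum. The mean was 91.9 ± 27.0 CPM in WT and 325 ± 174 CPM in ZDF, and the fold change was 3.13 (95% interval 1.59 to 6.15), or 1.65 ± 0.50 (SE) on the log2 scale (edgeR, FDR = 0.0227). The exact permutation test gave p = 0.00794, the smallest that 5 against 5 allows. A miRNA is called here when its false discovery rate (FDR) is below 0.2. Of all 370 miRNAs tested in this comparison 10% were called, 12 higher and 25 lower.

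MiR-21-5p did not pass the test in the same sera. It read 17294, 30171, 32298, 32847 and 40962 CPM in WT and 30015, 40959, 47852, 63484 and 64702 CPM in ZDF rats. The 3 highest ZDF values lie above all WT values, but the groups overlap, and the log2 difference of 0.56 ± 0.35 had FDR = 0.520 by edgeR. Without the WT serum at 40962 CPM it was 0.84 (edgeR, FDR = 0.186). MiR-21-3p ranged from 40.0 to 159 CPM in WT and from 52.0 to 279 CPM in ZDF rats, with a log2 difference of 0.38 ± 0.55 (edgeR, FDR = 0.898).

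**Figure D1:**
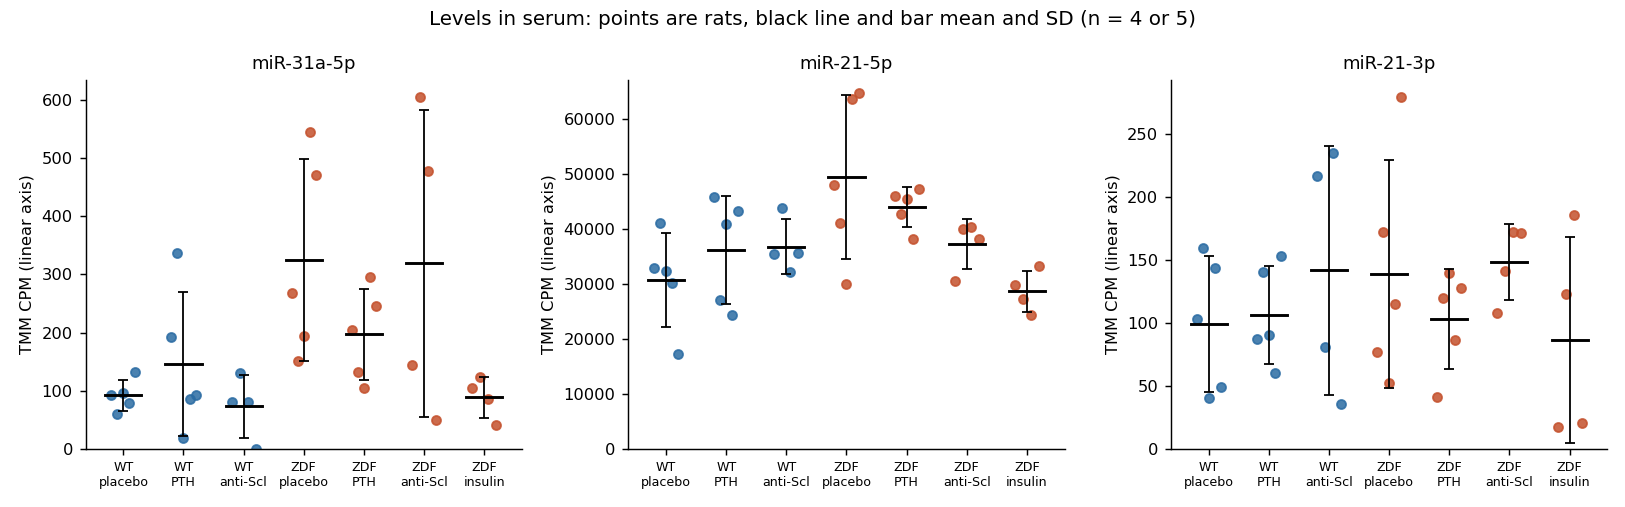
Levels of miR-31a-5p, miR-21-5p and miR-21-3p in TMM CPM (linear axes) for each of 32 serum libraries, grouped by genotype (blue WT, red ZDF) and treatment, with group mean (line) and SD (bar). The ZDF placebo points of miR-31a-5p all lie above the WT placebo points, and the ZDF insulin points lie below the ZDF placebo points, while the miR-21 arms overlap between most groups.

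The size of the miR-31a-5p difference depended on what the reads were scaled to. Each serum had received the same mix of 3 synthetic RNAs at extraction, and in 1000000 reads of these spike-ins miR-31a-5p had 15.2, 20.3, 24.3, 56.3 and 88.2 reads in WT and 24.4, 45.0, 56.3, 84.6 and 111 reads in ZDF placebo sera. The groups then overlap, with a log2 difference of 0.77 (exact permutation p = 0.222). With spike-in totals as library size in edgeR the log2 fold change was 0.70 (FDR = 0.513). On the authors' RPM, scaled to all reads of the library, ZDF sera ranged from 1.599 to 7.20 and WT sera from 1.59 to 2.24 (log2 difference 0.63, exact permutation p = 0.135). Across all miRNAs, spike-in scaling lowered the median log2 difference from -0.24 to -1.05. Relative to that median, miR-31a-5p stood 1.89 higher under TMM and 1.75 higher under spike-in scaling. A change of library size moves all miRNAs of a library alike, so this distance is nearly fixed and does not bear on the choice of scaling. MiR-21-5p stood 0.81 and 0.62 above the median, and its own log2 fold change turned from 0.56 to -0.43 (edgeR, FDR = 0.651).

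The share of all reads that were miRNAs also separated these groups, at 1.58 to 2.89% in WT and 0.687 to 1.57% in ZDF placebo sera, and its part was not tested. Liver miRNAs moved with miR-31a-5p in these sera. All 3 hepatocyte markers (miR-122-5p, miR-122-3p and miR-802-5p) were called higher in ZDF placebo serum. Their sum was 209 to 517 CPM in WT and 376 to 3280 CPM in ZDF rats. Of 7 epithelial markers none was called, and their sum was 1054 to 3274 CPM in WT and 2296 to 5575 CPM in ZDF sera. Of 5 muscle markers 3 were called lower, with sums of 1389 to 39346 CPM in WT and 1186 to 10921 CPM in ZDF sera. The part of these lists in the miR-31a-5p difference was not tested.

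**Figure D2:**
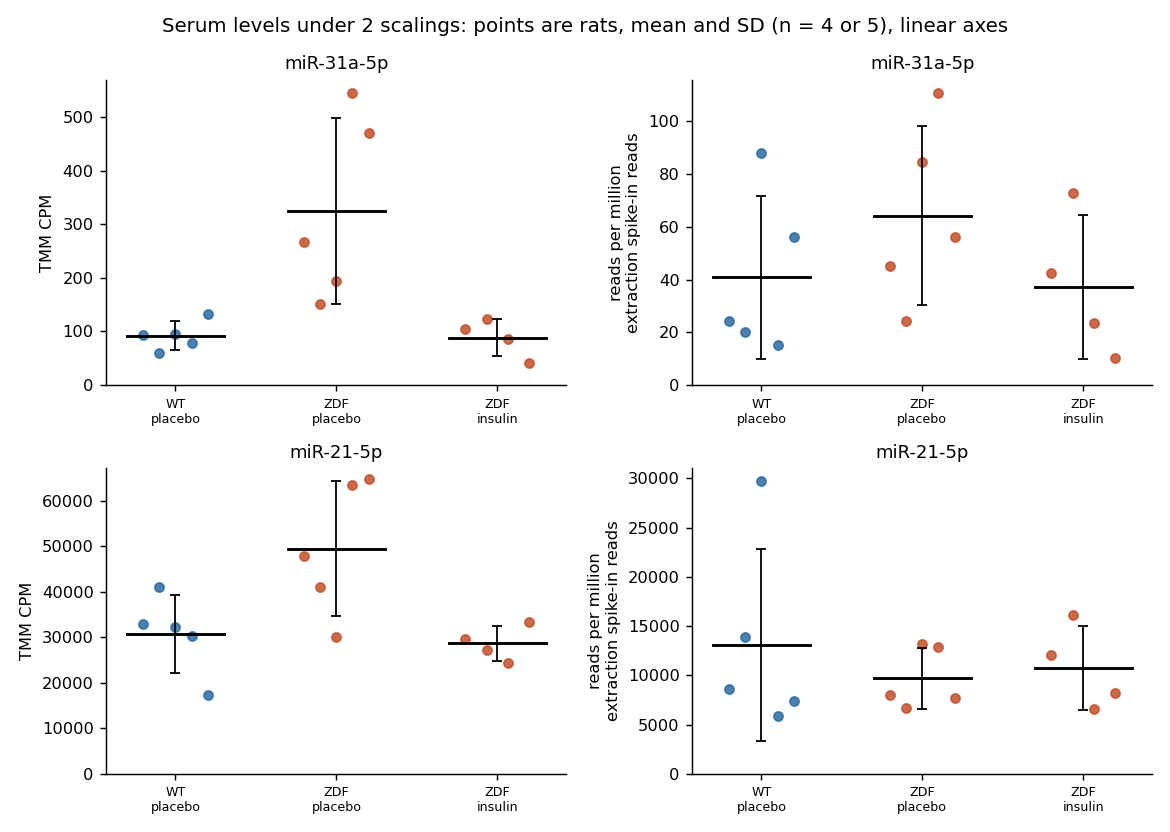
MiR-31a-5p (top) and miR-21-5p (bottom) in WT placebo, ZDF placebo and ZDF insulin sera, as TMM CPM (left) and as reads in 1000000 extraction spike-in reads (right), 1 point per rat with mean and SD on linear axes. On the left, miR-31a-5p of ZDF placebo sera (150 to 545 CPM) is apart from WT placebo (59.6 to 133 CPM) and ZDF insulin sera (41.1 to 123 CPM), and on the right all 3 groups overlap.

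The same contrast of genotypes was measured under the treatments. Under anti-sclerostin, miR-31a-5p read 0, 80.4, 81.2 and 131 CPM in WT and 48.9, 144, 477 and 605 CPM in ZDF rats. The ZDF values of 477 and 605 CPM are far above the rest, and those of 48.9 and 144 CPM overlap the WT range or lie beside it. The log2 fold change was 2.07 ± 0.66 (edgeR, FDR = 0.0764, 3.69% of 325 miRNAs tested called), whereas the exact permutation p was 0.171. This call rested on single libraries and on the filter. It was lost without the ZDF serum at 605 CPM (FDR = 0.675), without the WT serum at 0 CPM (FDR = 0.357), and when low counts were removed before the fit (FDR = 0.462). In this comparison 2 of 3 hepatocyte markers were called higher, and the 2 ZDF sera with the high miR-31a-5p had hepatocyte sums of 3271 and 4221 CPM against 392 and 468 CPM in the other two. Under PTH, miR-31a-5p read 18.0, 85.6, 93.3, 193 and 338 CPM in WT and 105, 133, 205, 246 and 296 CPM in ZDF rats. These ranges overlap. The log2 fold change was 0.43 ± 0.59 by edgeR. It has no FDR, since the filter of that comparison left 43 miRNAs, of which 2.33% were called, and miR-31a-5p was not among them. On the spike-in scale the difference was larger, at 33.1 to 176 reads in ZDF and 9.92 to 72.8 reads in WT sera, still with overlap (log2 difference 1.65, exact permutation p = 0.0397). Spike-in totals as library size also raised the median over all miRNAs from 0.05 to 0.84, with 0 miRNAs called. The ZDF serum at 176 reads had the fewest spike-in reads of all sera (51220), and the WT serum at 9.92 the most (1008421). MiR-21-5p differed by 0.28 ± 0.42 under PTH (edgeR, FDR = 0.825) and by -0.06 ± 0.43 under anti-sclerostin (FDR = 0.988), which was 0.48 with spike-in totals as library size.

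In insulin-treated ZDF rats, both miR-31a-5p and miR-21-5p were lower in serum than under placebo. MiR-31a-5p read 41.1, 86.4, 104 and 123 CPM under insulin, all below the placebo range of 150 to 545 CPM. The levels correspond to 2 to 9 reads per library under insulin and 14 to 38 under placebo. The log2 fold change was -1.82 ± 0.50 (edgeR, FDR = 0.00883, exact permutation p = 0.0159, the smallest that 4 against 5 allows), or 3.54-fold lower (95% interval 1.80 to 6.94). MiR-21-5p read 24374, 27190, 29680 and 33237 CPM under insulin against 30015 to 64702 CPM under placebo. The highest insulin value lies above the lowest placebo value, and the groups are otherwise separate. Its log2 fold change was -0.81 ± 0.30 (edgeR, FDR = 0.0779, exact permutation p = 0.0317). The call of miR-21-5p was lost without the placebo serum at 64702 CPM (-0.66, FDR = 0.299), and without the insulin serum at 86.4 CPM of miR-31a-5p (-1.74) the filter removed miR-31a-5p from the test. MiR-21-3p read 17.4, 20.6, 123 and 185 CPM, inside and below the placebo range, with a log2 fold change of -0.60 ± 0.53 (edgeR, FDR = 0.601). In this comparison 15.9% of 309 miRNAs tested were called, 17 higher and 32 lower.

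Red cell miRNAs set the insulin sera apart from the placebo ZDF sera, while single WT placebo and ZDF PTH sera reached similar levels (251022 and 272924 CPM). The 4 erythrocyte markers summed to 233362 to 381326 CPM in the 4 insulin sera and to 87066 to 159349 CPM in the placebo ZDF sera, and 3 of the 4 were called higher. Hemolysis, read as the log2 ratio between miR-451-5p and miR-23a-3p, was 3.18 to 3.79 against -0.49 to 1.41. These groups do not overlap, so hemolysis and insulin cannot be told apart in the fit. With the ratio as covariate the log2 fold changes were 0.22 for miR-31a-5p and 0.31 for miR-21-5p (edgeR, FDR = 1 for both). On the authors' RPM, miR-31a-5p stayed lower without overlap, at 0.364 to 1.25 against 1.599 to 7.20 (log2 difference -1.29, exact permutation p = 0.0159). In 1000000 spike-in reads, it had 10.2, 23.4, 42.5 and 72.9 reads under insulin, which overlaps the placebo range of 24.4 to 111 (log2 difference -0.92, exact permutation p = 0.206). MiR-21-5p had 6590, 8213, 12093 and 16143 reads under insulin and 6641 to 13143 under placebo on that scale, with a log2 difference of 0.12 of opposite sign (exact permutation p = 0.730). Across all miRNAs, spike-in scaling raised the median from -0.18 to 0.61. Relative to that median, miR-31a-5p stood at -1.64 under TMM and at -1.46 under spike-in scaling, and miR-21-5p at -0.63 and -0.46. A change of library size leaves this distance nearly fixed here too, so it does not show that either decrease persists under spike-in scaling. The 3 hepatocyte markers were also all called lower under insulin, with sums of 609 to 1350 CPM, and 3 of 7 epithelial markers, with sums of 1841 to 3126 CPM against 2296 to 5575 CPM. The part of the liver and epithelial lists was not tested.

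Insulin-treated ZDF sera were also set beside WT placebo sera, in a comparison that shares samples with both above. MiR-31a-5p was at 88.7 ± 35.0 CPM (SD, n = 4) and 91.9 ± 27.0 CPM (SD, n = 5), a log2 difference of -0.04 ± 0.65 with a 95% interval of -1.31 to 1.23 (edgeR, FDR = 0.995). MiR-21-5p differed by -0.09 ± 0.37 (interval -0.80 to 0.63, FDR = 0.957). In this comparison 12.3% of 349 miRNAs tested were called. Red cell miRNAs differed here as well, with 3 of 4 erythrocyte markers called higher in the insulin sera. Their sums were 233362 to 381326 CPM under insulin and 75272 to 251022 CPM in WT placebo sera, with overlap. The small differences of both members were thus measured between sera that also differed in red cell miRNA. The scaling mattered here too. On the authors' RPM, miR-31a-5p was lower in the insulin-treated ZDF sera without overlap, at 0.364 to 1.25 against 1.59 to 2.24 (log2 difference -0.66, exact permutation p = 0.0159). MiR-21-5p was also lower by RPM, at 194 to 354 against 292 to 1366 with overlap (-1.21, exact permutation p = 0.0476). On the spike-in scale the differences were -0.15 and -0.10 (exact permutation p = 0.825 and 0.873).

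The remaining treatment contrasts in serum gave no call for any of the members under TMM scaling. With spike-in totals as library size, miR-21-5p was called higher under PTH in ZDF rats (1.51, edgeR, FDR = 0.198), opposite in sign to TMM. In that fit 117 miRNAs were called, 117 higher and 0 lower, against 5 under TMM. The call was thus part of a shift of many miRNAs and not specific to miR-21-5p. The serum with the fewest spike-in reads (51220) belongs to this PTH group. On the spike-in scale miR-21-3p was 0.90 higher under anti-sclerostin in ZDF rats, with overlap (exact permutation p = 0.0317). It had 3 to 24 reads in these sera and 4 to 16 under placebo. Spike-in totals as library size raised the median over all miRNAs in this comparison from 0.08 to 0.57. PTH against placebo gave log2 fold changes of miR-31a-5p of -0.60 ± 0.48 in ZDF rats (1.08% of 462 miRNAs tested called) and 0.59 ± 0.60 in WT rats (1.08% of 278). Anti-sclerostin against placebo gave 0.18 ± 0.50 in ZDF rats (8.03% of 299) and -0.33 ± 0.65 in WT rats (5.57% of 305). The FDR of miR-31a-5p in these 4 comparisons was 0.698 to 0.995. For miR-21-5p the 4 log2 fold changes lay between -0.40 and 0.24 (FDR of at least 0.764), and for miR-21-3p between -0.31 and 0.48. The difference in response between genotypes was tested as an interaction. For PTH it was -1.33 ± 0.76 for miR-31a-5p (edgeR, FDR = 0.792, 95% interval -2.83 to 0.16, 2.25% of 267 miRNAs tested called) and -0.37 ± 0.54 for miR-21-5p (FDR = 0.956). For anti-sclerostin it was 0.41 ± 0.79 for miR-31a-5p (FDR = 0.966, interval -1.13 to 1.957, 1.06% of 283 called) and -0.59 ± 0.53 for miR-21-5p (FDR = 0.957). The responses of WT and ZDF rats were thus not shown to differ, and differences as large as the ends of these intervals remain possible.

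Ordered by mean, serum miR-31a-5p went from ZDF placebo (325 CPM) over ZDF anti-sclerostin (319), ZDF PTH (197), WT PTH (145), WT placebo (91.9) and ZDF insulin (88.7) to WT anti-sclerostin (73.0 CPM). Each group's range overlaps that of its neighbour in this order. Serum miR-21-5p went from ZDF placebo (49402 CPM) over ZDF PTH (43920), ZDF anti-sclerostin (37188), WT anti-sclerostin (36715), WT PTH (36203) and WT placebo (30714) to ZDF insulin (28620 CPM), again with overlap between neighbours. MiR-21-5p had 846 reads or more in every serum library.

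In bone, PTH went with a lower miR-31a-5p in WT rats. The placebo bones read 57.0, 221, 385 and 438 CPM and the PTH bones 19.6, 45.4, 78.7 and 93.5 CPM. Of the placebo bones, 3 lie above all PTH bones and 1 lies among them, so the groups overlap. The log2 fold change was -2.05 ± 0.58 (edgeR, FDR = 0.0120), or 4.13-fold lower (95% interval 1.89 to 9.03), and the exact permutation p was 0.0857. It stayed below FDR = 0.2 without any single library, at log2 fold changes of -2.35 to -1.68. In this comparison 14.2% of 387 miRNAs tested were called, 19 higher and 36 lower. The PTH bones had fewer reads, with 41627 to 282285 miRNA reads and 1 to 24 reads of miR-31a-5p, against 195045 to 952131 and 13 to 270 in the placebo bones.

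The summed levels of the muscle and mesenchyme lists differed between the same bones, while their members were called in both directions. The 5 muscle markers summed to 53681, 125337, 224925 and 424779 CPM in the WT placebo bones and to 47996 to 69067 CPM in the WT PTH bones, with 1 called higher and 1 lower and a median log2 fold change of 0.13. The bone with 53681 CPM of muscle miRNA was the placebo bone with 57.0 CPM of miR-31a-5p. The 5 mesenchymal markers summed to 57617 to 142843 CPM under placebo and 95652 to 285389 CPM under PTH, with 1 called higher and 1 lower and a median log2 fold change of -0.60, opposite in sign to the sums. The median over all tested was -0.09. Hepatocyte markers were at or near 0 in these bones, with sums of 0 to 11.0 CPM. The part of muscle RNA in the difference was not tested.

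**Figure D3:**
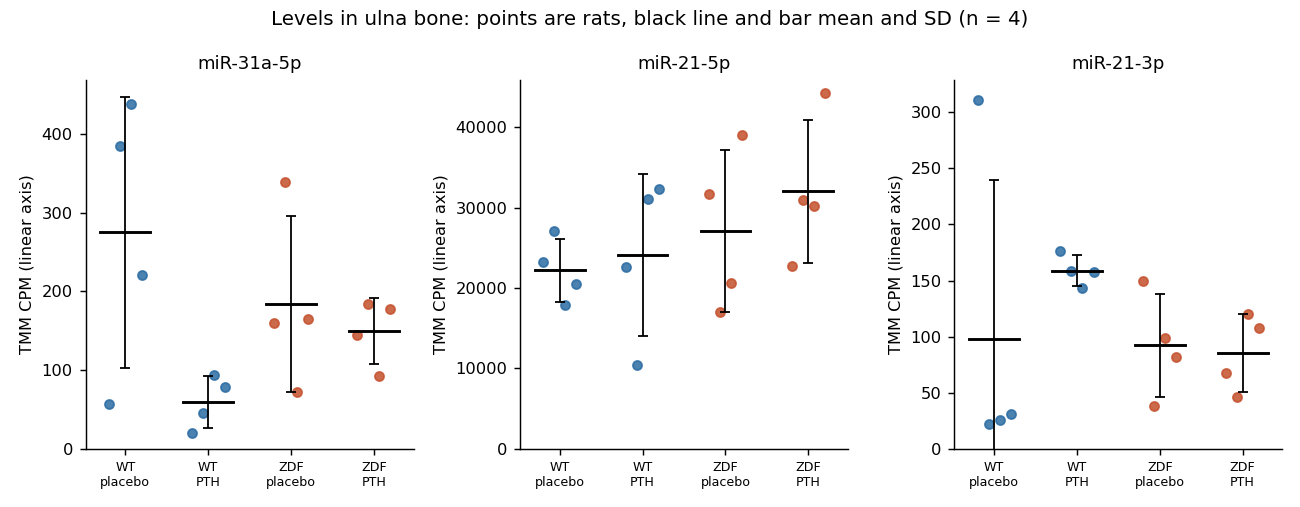
Levels of miR-31a-5p, miR-21-5p and miR-21-3p in TMM CPM (linear axes) in each of 16 ulna libraries (blue WT, red ZDF), with group mean and SD; the lower SD bar of miR-21-3p in WT placebo bone is cut at 0. The WT PTH bones hold 19.6 to 93.5 CPM of miR-31a-5p, and a single WT placebo bone stands apart in miR-21-3p at 311 CPM.

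In ZDF bone the same contrast gave no call. MiR-31a-5p read 72.3, 160, 164 and 339 CPM under placebo and 93.0, 144, 178 and 184 CPM under PTH. The PTH values lie inside the placebo range, and the log2 fold change was -0.34 ± 0.41 (edgeR, FDR = 0.840). In this comparison 0% of 569 miRNAs tested passed FDR < 0.2 by edgeR, with 42 at an unadjusted p under 0.05, and DESeq2 called 1. The difference between the PTH responses of ZDF and WT bone was 1.72 ± 0.72 (edgeR, FDR = 0.374, 95% interval 0.31 to 3.13, 3.03% of 264 miRNAs tested called), so that the responses were not shown to differ at FDR < 0.2. Without the WT placebo bone at 57.0 CPM it was 2.03 (FDR = 0.0823), and without the ZDF placebo bone at 339 CPM it was 2.21 (FDR = 0.0888).

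Between genotypes, miR-31a-5p did not pass the test in bone. Under placebo, ZDF minus WT was -0.57 ± 0.50 (edgeR, FDR = 0.596, 12.6% of 231 miRNAs tested called), opposite in sign to serum. It was called lower in ZDF bone when the WT placebo bone at 57.0 CPM (-0.97, FDR = 0.108) or the ZDF placebo bone at 339 CPM (-1.08, FDR = 0.126) was left out. Under PTH it was 1.14 ± 0.58 (edgeR, FDR = 0.328, 5.36% of 261 called), with 3 of 4 ZDF bones above all WT bones and the fourth at 93.0 CPM beside a WT bone at 93.5 CPM. DESeq2 called this difference (log2 fold change 1.18, FDR = 0.194), among 25 miRNAs called, 12 higher and 13 lower. On the authors' RPM the ZDF bones were higher without overlap (6.26 to 18.2 against 0.388 to 6.16, exact permutation p = 0.0286). RPM divides by all reads, and miRNAs made up 6.79 to 12.6% of these in ZDF and 1.58 to 7.23% in WT PTH bones. The part of that share was not tested. The lowest WT values, 0.388 and 0.758, came from 1 and 2 reads. Marker lists also differed between genotypes in bone. Under placebo, 2 of 4 leukocyte and 2 of 5 mesenchymal markers were called lower in ZDF bone and 2 of 5 muscle markers higher. Under PTH, 2 of 4 leukocyte markers were called lower and 2 of 5 muscle markers higher. The part of these lists in the miR-31a-5p values was not tested.

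MiR-21-5p was not called in any bone comparison. It read 17930, 20533, 23255 and 27120 CPM in WT placebo, 10442, 22572, 31094 and 32321 CPM in WT PTH, 17068, 20610, 31656 and 39074 CPM in ZDF placebo and 22774, 30240, 30904 and 44243 CPM in ZDF PTH bones. All 4 ranges overlap, and the lowest value, 10442 CPM, came from the shallowest bone library. Its log2 fold changes in the 4 bone comparisons were 0.12 to 0.40 (edgeR, FDR of at least 0.697). By mean the order was ZDF PTH, ZDF placebo, WT PTH and WT placebo, without separation between neighbours. The corresponding order of miR-31a-5p was WT placebo (275 CPM), ZDF placebo (184), ZDF PTH (150) and WT PTH (59.3 CPM), also with overlap between neighbours.

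The star arm miR-21-3p was also not called in bone, but its values hung on a single library. It read 21.9, 25.9, 31.1 and 311 CPM in WT placebo, 143, 157, 159 and 176 CPM in WT PTH, 38.4, 82.2, 98.6 and 150 CPM in ZDF placebo and 45.9, 67.2, 108 and 120 CPM in ZDF PTH bones. The WT PTH bones lay close together and above all ZDF PTH bones. That difference, ZDF minus WT, was -0.92 ± 0.56 on the log2 scale (edgeR, FDR = 0.422, exact permutation p = 0.0286, the smallest that 4 against 4 allows). On the authors' RPM its sign turned (0.20, exact permutation p = 0.914). A single WT placebo bone, the one low in miR-31a-5p, held 71 reads of miR-21-3p at 311 CPM, whereas the other 3 held 9 to 23 reads. With it, ZDF minus WT under placebo was -0.07 ± 0.70 (edgeR, FDR = 0.970). Without it the value was 1.70 (FDR = 0.0334). The log2 fold change of miR-21-3p under PTH in WT bone was 0.76 ± 0.56 with that library (FDR = 0.530) and 2.57 without it (edgeR, FDR = 5.12e-05). The difference between the PTH responses of ZDF and WT bone was -0.85 ± 0.75 with it (FDR = 0.830) and -2.62 without it (edgeR, FDR = 0.0288). These calls thus depend on whether that bone is kept. Within libraries, the ratio of miR-21-5p to miR-21-3p reads was 61.4 to 213 in WT PTH bones and 246 to 644 in ZDF PTH bones, without overlap (log2 difference 1.51, exact permutation p = 0.0286, adjusted p = 0.429 over 15 comparisons).

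**Figure D4:**
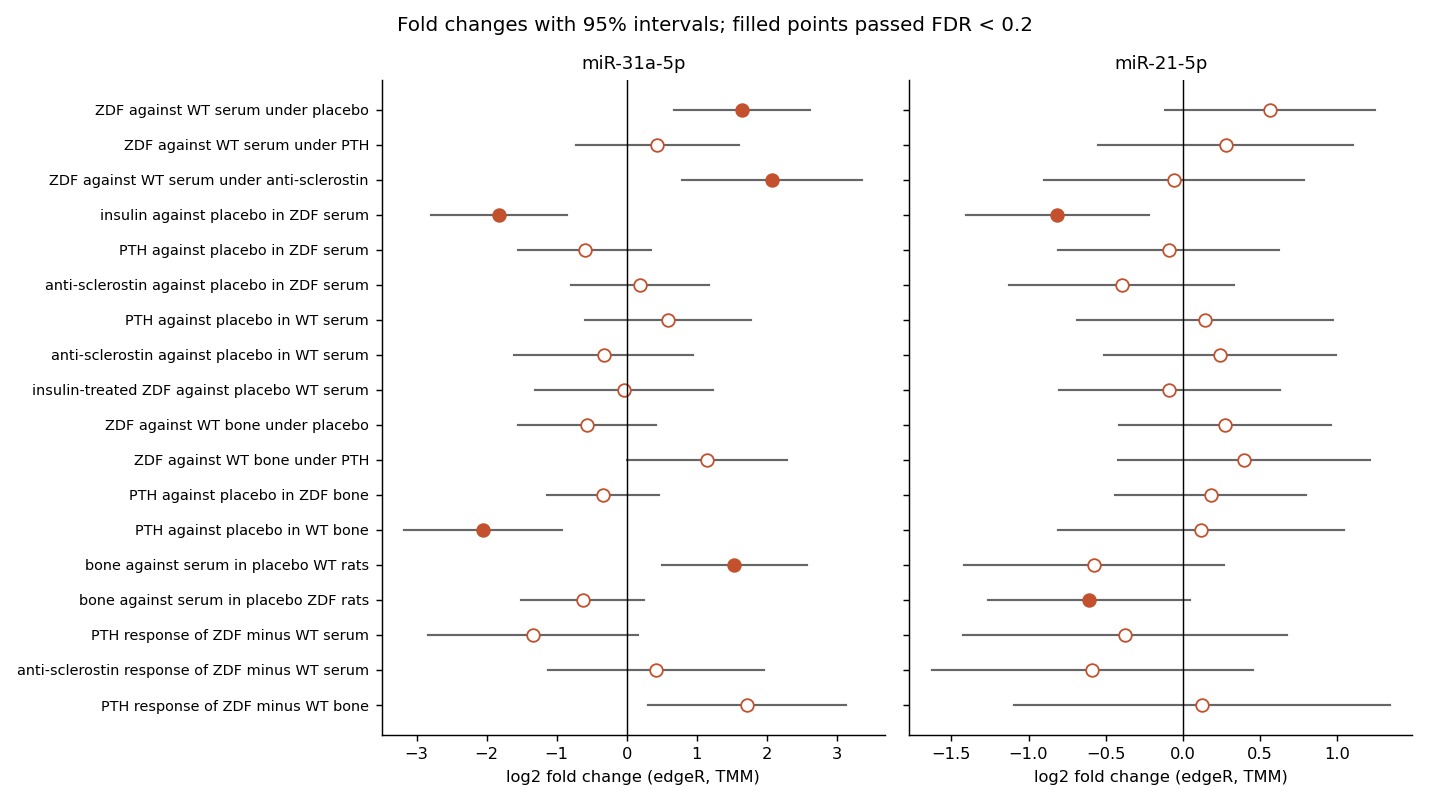
Log2 fold changes of miR-31a-5p (left) and miR-21-5p (right) in the 18 comparisons, with 95% intervals of the fit. Filled points passed FDR < 0.2 and comparisons share control groups, so they are not independent. MiR-31a-5p spans -2.05 to 2.07, and miR-21-5p -0.81 to 0.56, on axes of different scale.

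Bone was set against serum within placebo rats, where most miRNAs differed. In WT rats miR-31a-5p was 1.53 ± 0.53 higher in bone on the log2 scale (edgeR, FDR = 0.0113), with 64.8% of 509 miRNAs tested called and a median of 0.82 across all miRNAs. The bones ranged from 60.1 to 477 CPM and the sera from 71.8 to 149 CPM under a common scaling, so they overlap (log2 difference of levels 1.13, exact permutation p = 0.127). On the authors' RPM the WT bones were higher without overlap, at 3.37 to 59.9 against 1.59 to 2.24 (3.07, exact permutation p = 0.0159). In ZDF rats it was -0.63 ± 0.45 (edgeR, FDR = 0.228), with 69% of 504 miRNAs tested called and a median of 1.14, but 1.67 higher in bone on the authors' RPM (exact permutation p = 0.0635). MiR-21-5p was lower in ZDF bone by CPM, and 1.91 higher on the log2 scale by the authors' RPM (exact permutation p = 0.0159). Its CPM was 16084 to 39606 against 39743 to 60589 CPM in serum, without overlap (log2 fold change -0.61 ± 0.33, edgeR, FDR = 0.115, exact permutation p = 0.0159), although its 95% interval of -1.26 to 0.04 held 0. That call was lost when any of 6 of the 9 libraries was left out (edgeR, FDR up to 0.462 and log2 fold change down in size to -0.35 without the bone at 16084 CPM). The uncalled miR-31a-5p difference in ZDF rats passed without the bone at 319 CPM (-0.90, FDR = 0.101) or without 1 of the sera with the lowest levels (-0.79 and -0.75). In WT rats the difference of miR-21-5p was -0.58 ± 0.43 (edgeR, FDR = 0.258) by CPM and 1.86 by RPM (exact permutation p = 0.0159). MiR-21-3p was at -0.38 ± 0.51 by CPM in ZDF rats (FDR = 0.533) and 1.64 higher in bone by RPM. In WT rats it was at -0.25 ± 0.56 (FDR = 0.725), and at -1.92 (edgeR, FDR = 0.00331) without the bone at 311 CPM. MiRNAs made up 0.687 to 2.89% of all reads in the placebo sera and 4.87 to 21.5% in the placebo bones. Within libraries, the log2 ratio of miR-31a-5p to miR-21-5p reads was -6.66 ± 1.39 in WT placebo bone and -8.31 ± 0.83 in WT placebo serum (exact permutation p = 0.0794, adjusted p = 0.321), and -7.31 ± 1.12 and -7.33 ± 0.45 in ZDF rats.

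Over all 32 sera, the miRNAs most like miR-31a-5p by rank were miR-192-5p (Spearman's rho = 0.77), miR-122-5p (0.73) and miR-802-5p (0.67), of 150 miRNAs compared, whose median rho was 0.02. These 3 are known as liver-rich miRNAs, miR-192-5p also for gut and kidney. For miR-21-5p they were miR-28-3p (0.62), miR-132-3p (0.54) and miR-101b-3p (0.53). Over the 16 bones, miR-25-5p (0.85), miR-652-3p (0.83) and miR-874-3p (0.81) led for miR-31a-5p, and miR-103-3p (0.81), miR-196b-5p (0.80) and miR-34c-5p (0.78) for miR-21-5p, of 221 compared. These values describe libraries that share treatment groups and differ in depth, and carry no test.

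**Figure D5:**
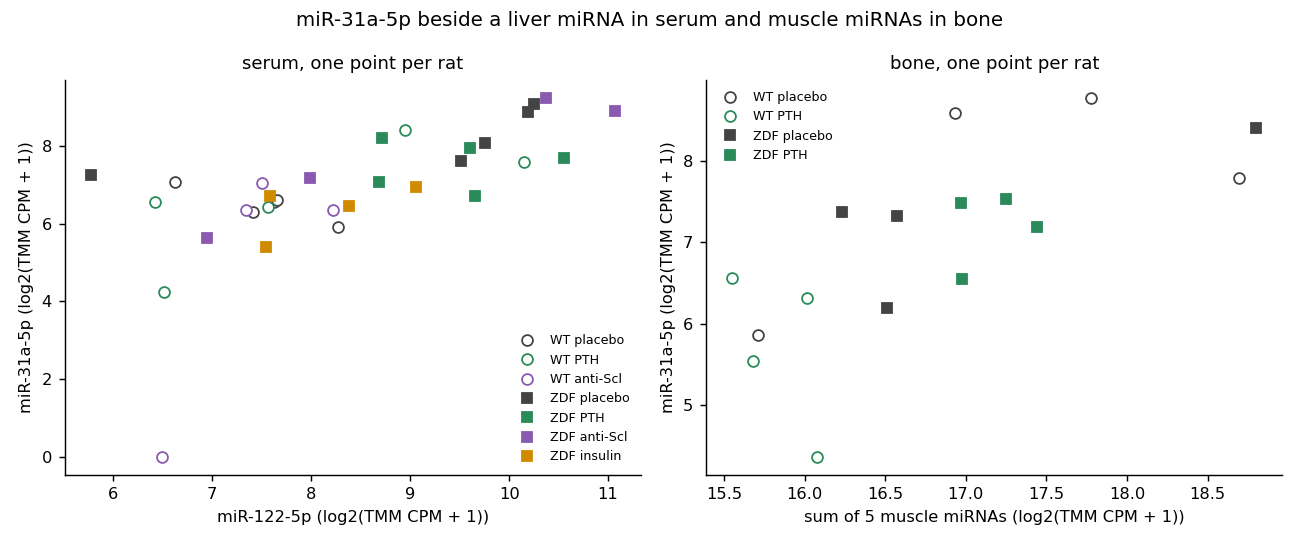
MiR-31a-5p against miR-122-5p in 32 sera (left) and against the summed level of 5 muscle miRNAs in 16 bones (right), as log2(TMM CPM + 1), 1 point per rat, open circles WT and filled squares ZDF, coloured by treatment. In serum, rho with miR-122-5p is 0.73, and the ZDF placebo rat at the far left lies apart from the other 4 of its group. In bone, the WT placebo rat with 57.0 CPM of miR-31a-5p lies among the WT PTH rats.

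As a frame for the members, a list of 24 other miRNAs known from osteoclasts, osteoblasts and remodelling was read in the same fits, of which 23 are in the files. In ZDF against WT placebo serum, 1 of 22 tested was called higher and 2 lower (10% of all miRNAs called), with a median log2 fold change of -0.21 beside -0.19 over all tested. Those lower were miR-218a-5p (-2.76 ± 0.55), which is known to promote Wnt signalling in osteoblasts, and the muscle miRNA miR-133a-3p (-1.69 ± 0.36), a repressor of Runx2. MiR-145-5p was higher (1.04 ± 0.35). The ranges of ZDF and WT sera overlapped for each of these. Under insulin in ZDF serum 1 of 21 was called higher and 5 lower (15.9% of all called), with a median of -0.35 beside -0.15 over all tested. Among those lower were miR-146a-5p (-1.16 ± 0.32), a brake on NF-kB signalling, miR-125a-5p (-1.06 ± 0.33) and miR-29a-3p (-0.86 ± 0.30), a repressor of collagens. Insulin and placebo ranges overlapped for miR-146a-5p and miR-125a-5p, but not for miR-29a-3p. In insulin-treated ZDF against WT placebo serum 0 of 21 were called higher and 6 lower (12.3% of all called). The median was -0.51 beside -0.09 over all tested. Among those lower were miR-133a-3p (-1.83 ± 0.38), miR-218a-5p (-2.27 ± 0.60) and miR-146a-5p (-1.09 ± 0.39), each with overlapping ranges. In WT bone under PTH 2 of 23 were called higher and 2 lower (14.2% of all called). MiR-133a-3p (-1.90 ± 0.47) and miR-214-3p (-1.83 ± 0.52), an inhibitor of bone formation, were lower, and miR-148a-3p (1.40 ± 0.49), known to promote osteoclast differentiation, was higher. PTH and placebo ranges overlapped for each of them. The placebo range of miR-148a-3p (3550 to 9968 CPM) lay inside its PTH range (3041 to 28716 CPM). In ZDF bone under PTH 0 of 23 were called (0% of all called). In ZDF serum under PTH 1 of 22 was called (1.08% of all called). It was miR-218a-5p, which was higher (2.50 ± 0.57) with overlapping ranges. Between genotypes in bone, miR-214-3p was lower under placebo (1 of 19 called, beside 12.6% of all) and miR-133a-3p higher under PTH (1 of 21 called, beside 5.36% of all). The genotypes overlapped for miR-214-3p and were separate for miR-133a-3p. In ZDF against WT serum under anti-sclerostin, where miR-31a-5p was called, 0 of 22 were (3.69% of all called), with a median of 0.27 beside -0.08 over all tested. Against placebo in ZDF serum, anti-sclerostin gave 3 of 22 called higher and 1 lower (8.03% of all called). MiR-218a-5p (2.57 ± 0.62) and miR-223-3p (0.96 ± 0.37) were higher with overlapping ranges, and miR-145-5p (-1.46 ± 0.42) was lower without overlap. The anti-sclerostin response of miR-218a-5p differed between genotypes (3.46 ± 0.85, edgeR, FDR = 0.0154, 1 of 21 called, beside 1.06% of all).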

How the data were processed

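After adapter removal (cutadapt), the authors aligned reads to rat genome and miRBase sequences (Bowtie, miRDeep2) and deposited raw counts for each mature miRNA. The deposited RPM column divides these by the total of the library, all RNA classes included, and a further column scaled to miRNA reads was not used. Per the study's methods, 3 synthetic RNAs were added to each serum at extraction. Bone libraries held only 2 to 65 reads of them, so that scaling was used in serum alone.

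Each library was assigned to its group from its labels. Counts were compared with edgeR 4.0.16 in R 4.3.3 (quasi-likelihood test) after independent filtering on mean CPM, both named in the study's methods. TMM scaling, legacy = TRUE, robust = FALSE, a minimum of 1 read and 50 filter quantiles up to 0.95 were set here. A miRNA was called at FDR < 0.2 (Benjamini-Hochberg over all miRNAs kept). SE is the size of the log2 fold change divided by the root of F. Single levels (pseudocount 1 on log2 CPM) and read ratios (pseudocount 0.5) were compared by two-sided exact permutation tests (scipy 1.17.1). Intervals and limits of single libraries cover counting error only. CPM values use 1 TMM scaling per tissue, and 1 over all 48 libraries for bone against serum. Depth was 28015 to 1398702 miRNA reads.

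The members, the gene lists and the tests were chosen with earlier results of these data known. MiRNAs are named where they are members, among the 3 most alike in rank (median of at least 10 reads), or up to 3 called list members with the lowest FDR. DESeq2 1.42.0, RLE, library totals, other filters, a hemolysis covariate, FDR < 0.05, one fit over all groups and each library left out were tried; spike-in scaling was added after the data were seen. The edgeR step was tested on simulated data for 2 of the comparisons. Sequences came from RefSeq (GRCr8).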

Additional observations from a re-analysis of the deposited data

Results flagged for a closer look

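Of 33 combinations of a member and a group tested for a single outlying library, 1 was flagged, and chance flags about 1 in 20. MiR-21-3p stood at 311 CPM in a WT placebo bone, far above the other 3 of its group at 21.9 to 31.1 CPM. The same library had the lowest miR-31a-5p (57.0 CPM) and the lowest muscle miRNA (53681 CPM) of its group, and its 195045 miRNA reads were the fewest of that group. Of the 9 interaction tests of members between genotypes, 0 passed FDR < 0.2 by edgeR, where miR-31a-5p in bone had an unadjusted p of 0.0170.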

How the results depend on the processing

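Log2 fold changes of the members called are given here as they moved. For miR-31a-5p, the higher bone level in WT rats and the lower level under PTH in WT bone kept their direction and call under all 10 alternatives of the fit (1.24 to 1.598 and -2.12 to -1.97) and without any single library (1.27 to 1.87 and -2.35 to -1.68). ZDF against WT placebo serum kept its call under 11 of 12 alternatives and without any single library (1.42 to 1.83), and lost it under spike-in totals (0.70). Under anti-sclerostin it lost the call with DESeq2 (2.21), filterByExpr with or without independent filtering (2.24), the hemolysis covariate (2.19) and FDR < 0.05 (2.07), and ranged from 1.68 to 2.57 with single libraries left out. Under insulin it was -0.84 with spike-in totals, 0.22 with the hemolysis covariate and -1.98 to -1.57 with single libraries left out. Without the insulin serum at 86.4 CPM (-1.74) the independent filter removed it. MiR-21-5p under insulin lost its call at FDR < 0.05 (-0.81), was 0.31 with the hemolysis covariate and 0.15 with spike-in totals (0.12 as a difference of spike-scaled levels), and ranged from -0.92 to -0.66 with single libraries left out, losing the call without the placebo serum at 64702 CPM (-0.66, FDR = 0.299). MiR-21-5p in ZDF bone against serum lost its call with all groups in one fit (-0.53), at FDR < 0.05 (-0.61) and without any of 6 of the 9 libraries (-0.89 to -0.35 over all 9, FDR up to 0.462). On RPM it was 1.91 in ZDF and 1.86 in WT bone, and miR-21-3p 1.64 in ZDF bone. MiR-21-5p under PTH in ZDF serum, not called, was called in the other direction with spike-in totals (1.51, FDR = 0.198). All 117 miRNAs called in that fit were higher. MiR-21-3p in ZDF against WT bone was 1.70 without a single WT placebo bone (-0.42 to 1.70 over all libraries left out in turn) and, under PTH, 0.20 on RPM. The causes were not tested. Of 516 fold changes of uncalled results under other alternatives, 468 kept their sign and stayed uncalled, 38 changed sign without a call, 9 became called and 1 became called with the other sign. With single libraries left out these numbers were 445, 45, 11 and 1 of 502. The 516 include FDR < 0.05, a stricter threshold on the same fit, under which an uncalled result keeps its sign and stays uncalled by construction. Read numbers limit miR-31a-3p most, and also miR-31a-5p and miR-21-3p. No paired analysis was possible because the labels carry no replicate numbers shared between groups.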
